A study of Bos taurus with 12 samples.

Results

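The genes described here are the bovine protein phosphatase genes of the receptor type (PTPR), the non-receptor type (PTPN) and the dual-specificity type (DUSP), as far as they carried a deposited methylation site in whole blood of subfertile or fertile dairy cows. A site is 1 cytosine on 1 strand, and it was counted for a gene when it lay in a promoter, exon, intron or untranslated region of a host gene whose symbol begins with PTPR, with PTPN, or with DUSP and a digit. By that rule there were 914 phosphatase sites in 37 genes, among 92,535 sites in gene features of 10,773 genes and 216,990 sites in all. The receptor class held 797 sites in 18 genes, the non-receptor class 104 sites in 11 genes and the dual-specificity class 13 sites in 8 genes. PTPRCAP, which the symbol rule takes in, encodes a protein bound to the leukocyte receptor CD45 and is not itself a phosphatase.

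The blood came from 6 cows labelled subfertile, which left the herd through reproductive problems that had not been recognised at sampling, and from 6 cows labelled fertile, all from 1 farm and aged 3 to 8 years. DNA was converted with enzymes that protect 5-methylcytosine and 5-hydroxymethylcytosine, so the 2 modifications read alike, and each value is the percent of reads at a site that read as methylated. The table held sites that its authors had already selected on these same cows: each had a deposited difference above 25 percentage points and a deposited q-value below 0.01. A p-value on these sites therefore describes the spread among these cows and is not independent evidence. No read counts were given, so the depth behind each percent is unknown. Missing values made up between 0.669% and 4.88% of all sites per cow, and no cow stood apart in its mean over gene-feature sites, which lay between 55.2% and 56.5% in subfertile cows and between 54.5% and 56.3% in fertile cows.

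Protein tyrosine phosphatases remove phosphate from tyrosine and so oppose tyrosine kinases. The receptor type spans the cell membrane, many of its members carrying adhesion domains outside the cell, and the non-receptor type lies within the cell, often tethered by lipid-binding or protein-binding domains. Dual-specificity phosphatases act on phosphotyrosine as well as phosphoserine and phosphothreonine, and several of them switch off mitogen-activated protein kinases. In leukocytes these enzymes set the threshold of antigen receptor and cytokine signalling.

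Of the 914 phosphatase sites, 377 had a higher mean in subfertile cows and 537 a lower one, so that 41.2% were higher (exact binomial 95% interval 38.0% to 44.5%, which treats sites as independent although neighbouring sites share reads and cows). Among all sites in gene features 50.6% were higher. The share was 40.9% in the receptor class, 41.3% in the non-receptor class and 61.5% (8 of 13) in the dual-specificity class. PTPRD, PTPRM and PTPRQ together held 348 sites, of which 30.2% were higher in subfertile cows, and the other 34 genes held 566 sites, of which 48.1% were higher. That division was chosen after the values were seen. Over the phosphatase sites of each cow, the mean methylation lay between 45.3% and 56.6% in subfertile cows and between 55.3% and 63.1% in fertile cows. The groups overlapped in these means, and subfertile cow 6 was the lowest of the 12. The median absolute site difference was 33.4 percentage points, as it was over all gene features. In whole blood a change in the shares of cell types and a change within a cell type cannot be told apart.

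**Figure D1:**
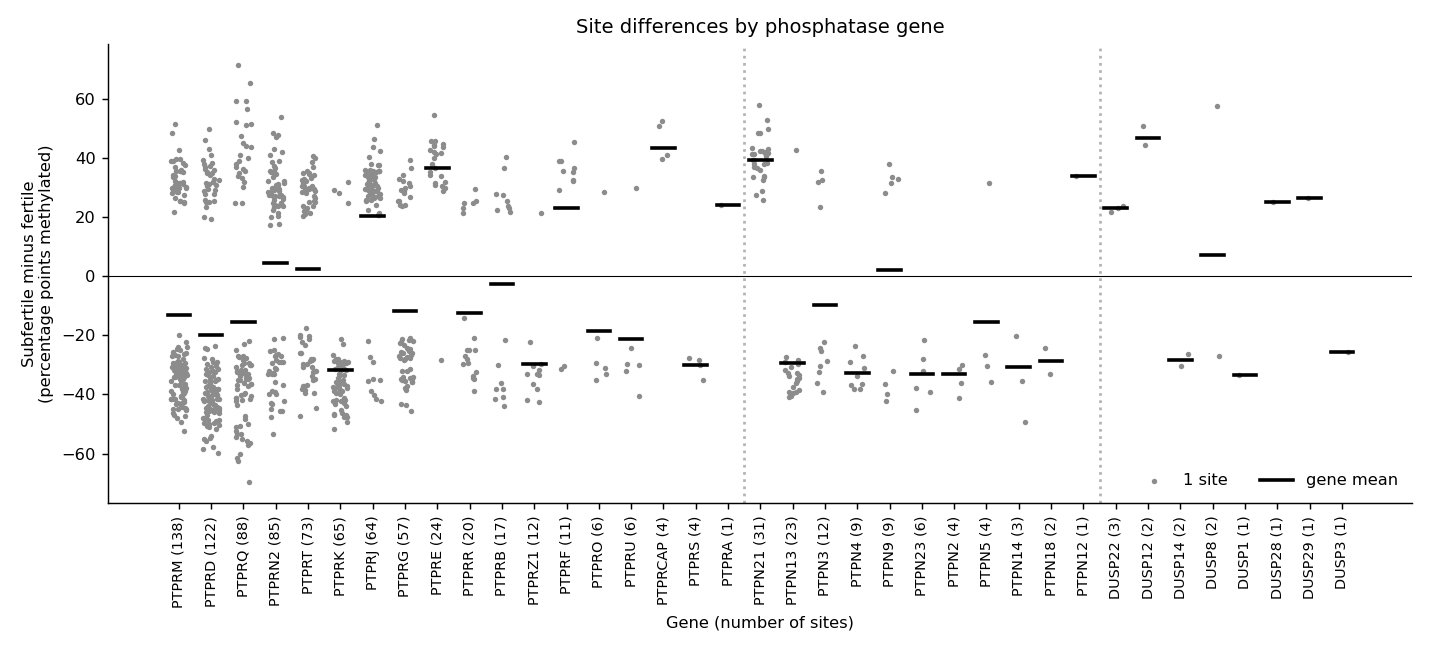
Difference in methylation, subfertile minus fertile, in percentage points (vertical axis) for each of the 914 sites (grey points), by gene with its number of sites (horizontal axis). Black bars are the differences of the gene means. Dotted lines part the receptor, non-receptor and dual-specificity classes. Most large receptor genes carry sites of both directions, with no sites near 0 because of the authors' selection, whereas all 31 PTPN21 sites lie above 0.

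Most of the sites were intronic. Introns held 859 of them (94.0%, against 83.2% of all gene-feature sites), promoters 35 (3.83%, against 13.0%), exons 18 and 3′ untranslated regions 2, both in PTPRCAP. Sites with 1 or more cows below 10% and 1 or more cows above 80% were termed genotype-like, a pattern that a sequence difference between cows can give, although no genotype was measured. This held for 637 phosphatase sites (69.7%, and 69.7% of all gene-feature sites as well). By gene it held for 75 of 88 sites in PTPRQ, 22 of 24 in PTPRE and all in PTPN4, PTPN23 and DUSP12, but for 21 of 57 in PTPRG. At 30 sites (3.28%) the lowest cow of one group lay above the highest of the other, 14 of them higher and 16 lower in subfertile cows. Such sites made up 2.93% of all gene-feature sites, and those on the lower side 1.2%. Without genotype-like sites 13 of 277 phosphatase sites were of this kind, against 5.23% of all gene-feature sites so filtered, and with runs of sites less than 1 kb apart averaged 15 of 486 phosphatase runs were, against 2.97% of all runs. PTPRD, PTPRM and PTPRQ held 20 of the 30.

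For each gene and cow the sites were averaged, and the means of all 9,891 genes with a value in every cow were fitted with limma on a log2 ratio of methylated to unmethylated percent, with Benjamini-Hochberg adjustment over all of these genes and a threshold of 0.05. None of the 37 phosphatase genes passed, where 0.121% of all genes did. At an unadjusted p below 0.05 there were 13 phosphatase genes, 5 higher and 8 lower in subfertile cows, and 40.6% of all genes. The median difference of gene means was −12.4 percentage points over the 37 genes and 1.78 over all genes, with 15 phosphatase genes higher and 22 lower. Over all sites of each gene, PTPRK was the single phosphatase gene whose groups did not overlap, as held for 3.38% of all genes. Without genotype-like sites it held for PTPRK and, narrowly, for PTPRD. There the highest subfertile cow of PTPRD stood at 55.5% and the lowest fertile cow at 56.9%. The share over all genes was not counted for that filter. Fitted one site at a time, 0 of the 914 phosphatase sites and 0.0% of all deposited sites passed limma at the same threshold, and at an unadjusted p below 0.05 there were 498 phosphatase sites (185 higher, 313 lower) and 52.7% of all sites. The smallest adjusted p of limma at a phosphatase site was 0.0659, in PTPRQ. Without the genotype-like sites, 24 phosphatase genes remained testable and 9 passed limma, as did 42.2% of all genes. The sites left numbered 1 each in PTPN12 and PTPRR, 2 in PTPRE, 3 in PTPN5, 4 in PTPN2, 6 in PTPN13, 13 in PTPRQ, 23 in PTPRK and 42 in PTPRD. PTPN12 and PTPN2 lost no site to the filter, and their log2 differences were unchanged. Of 277 phosphatase sites 190 passed, as did 73.0% of all such sites. On plain percent values 5 phosphatase sites passed, all in PTPRQ, and 0.479% of all sites.

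**Figure D2:**
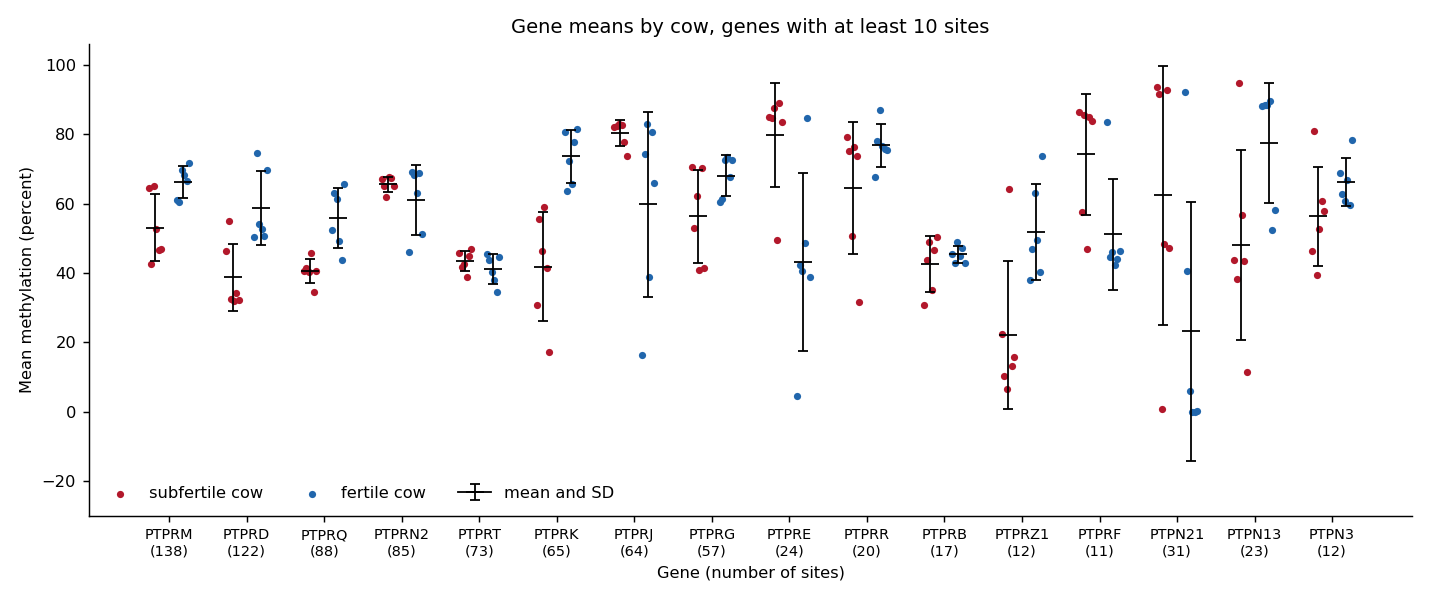
Mean methylation in percent (vertical axis) of the 16 phosphatase genes with at least 10 sites (horizontal axis, number of sites in brackets), with subfertile cows in red at the left of each gene and fertile cows in blue at the right. Each point is 1 cow, and black bars give the mean and the SD over 6 cows. PTPRK is the gene whose groups do not overlap, PTPRJ and PTPRE spread widely among fertile cows, and PTPN21 falls into separated levels in both groups.

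Among the adhesion receptors of the LAR family, which organise cell and synapse contacts, PTPRD carried 122 sites on chromosome 8 of ARS-UCD1.2, where its listed gene body runs from 36145265 to 36600302. Its gene mean in subfertile cows was lowest at 32.0%, with a median of 33.4% and a highest cow of 55.1%, and in fertile cows the lowest was 50.5%, the median 53.3% and the highest 74.5%. The groups overlapped through 1 subfertile cow. The mean was 38.7 ± 9.70% in subfertile cows and 58.7 ± 10.6% in fertile cows (SD, n = 6 each), with an adjusted p of 0.0917 by limma. The PTPRD log2 difference was −1.09, and −0.44 when sites less than 1 kb apart were averaged first, so that each run counted once. In subfertile cows 35 PTPRD sites had the higher mean and 87 the lower one.

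Of the 87 lower sites, 46 lay in a short stretch of intron 21 of 31. Runs were formed from sites of a gene less than 1 kb apart, which gave 486 runs over the phosphatase genes, 271 of them of 1 site. The 4 PTPRD runs of at least 8 sites lay within 25.7 kb, from 36496519 to 36522185, and held 49 sites, 46 lower and 3 higher in subfertile cows. Averaged over these sites, subfertile cows 3, 4, 5 and 6 stood at 5.46%, 5.94%, 5.92% and 5.77%, and subfertile cows 1 and 2 at 42.3% and 46.0%. Fertile cows 1, 3, 4 and 5 stood at 41.8%, 41.5%, 46.6% and 45.6%, and fertile cows 2 and 6 at 80.9% and 86.0%. The 12 cows thus fell at 3 separate levels, the lowest held by subfertile cows alone and the highest by fertile cows alone. The first of these runs (36496519 to 36499862, 14 sites) averaged 14.2 ± 22.1% in subfertile cows, 4 of which were listed at 0, and 55.2 ± 21.2% in fertile cows. In the run from 36507924 to 36510472 (10 sites) the averages were 14.2 ± 21.8% in subfertile cows and 62.1 ± 22.8% in fertile cows, and the groups did not overlap. In the run from 36515237 to 36519025 (17 sites, 3 of them higher in subfertile cows) they were 26.1 ± 15.1% in subfertile cows and 54.8 ± 17.2% in fertile cows. Whether the levels follow the cows' DNA sequence was not tested. Outside these runs PTPRD had 73 sites, 32 higher and 41 lower.

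**Figure D3:**
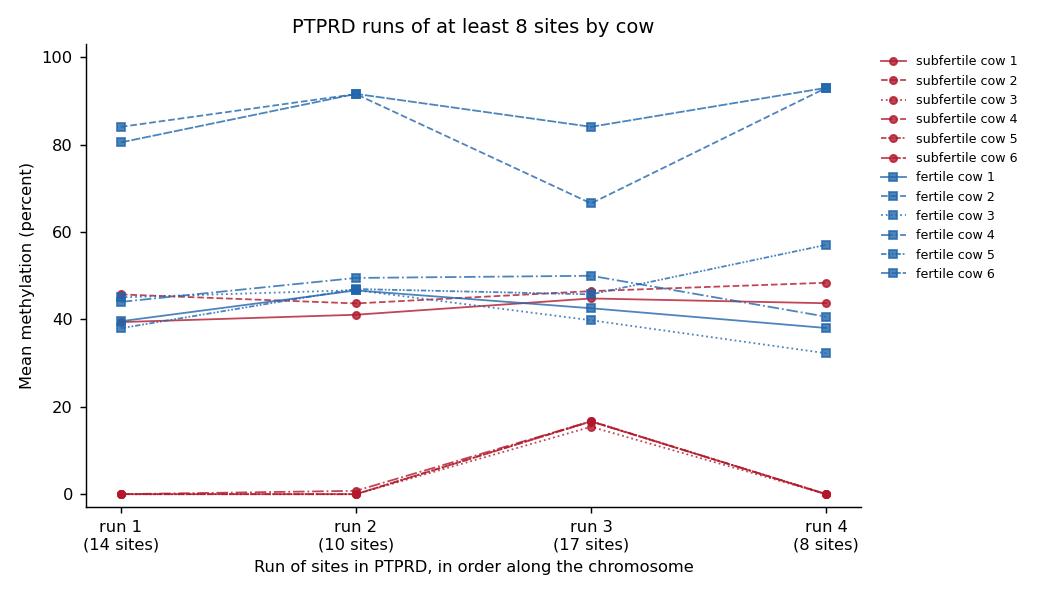
Mean methylation in percent (vertical axis) of the 4 PTPRD runs with at least 8 sites, in order along the chromosome (horizontal axis, number of sites in brackets). Each line is 1 cow, subfertile in red with circles and fertile in blue with squares. In every run the same 4 subfertile cows are lowest and the same 2 fertile cows highest, while the other 2 subfertile and 4 fertile cows lie together near the middle.

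Within the first run, the PTPRD site at chr8:36498124 on the minus strand, 1 of the single sites with the widest gap between groups, read 27.3%, 33.3%, 0%, 0%, 0% and 0% in subfertile cows 1 to 6 and 46.7%, 83.3%, 92.3%, 53.8%, 35.7% and 100% in fertile cows 1 to 6. Every subfertile cow lay below every fertile cow, with means of 10.1 ± 15.8% and 68.6 ± 26.6% (limma adjusted p = 0.0661 over all sites).

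Of the other LAR-family genes, PTPRS, a receptor for proteoglycans, had 4 sites, all lower, at 18.5 ± 15.2% in subfertile cows and 48.4 ± 34.2% in fertile cows. PTPRF, which encodes LAR itself and was singled out after its values were seen, had 9 of 11 sites higher and averaged 74.1 ± 17.3% in subfertile cows and 51.1 ± 15.96% in fertile cows. Of the PTPRF sites, 7 lay within 1 run from 102480330 to 102480529 on chromosome 3, and the log2 difference of 1.39 was 0.47 with runs averaged first. A single fertile cow, at 83.5%, lay among the subfertile cows there. The adjusted p by limma was 0.134 for PTPRS and 0.112 for PTPRF.

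The receptors with a MAM domain, which bind their own kind on a neighbouring cell, were PTPRM, PTPRK, PTPRT and PTPRU. PTPRM, on chromosome 24, had the most sites of all members, 138, of which 44 were higher and 94 lower in subfertile cows. Its gene mean had a low of 42.5%, a median of 49.8% and a high of 64.9% in subfertile cows, against 60.5%, 67.4% and 71.7% in fertile cows, and the groups overlapped. The means were 53.0 ± 9.61% and 66.3 ± 4.62% in subfertile and fertile cows (SD, n = 6 each), with an adjusted p of 0.143 by limma. Without genotype-like sites 56 PTPRM sites were left, and there the means were 68.9 ± 8.08% in subfertile cows and 68.9 ± 8.55% in fertile cows, the log2 difference being −0.0061 in place of −0.72. At the PTPRM site chr24:40556440 on the plus strand, in intron 2, subfertile cows averaged 38.2 ± 19.5% and fertile cows 90.7 ± 14.5%, and the groups did not overlap.

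PTPRK, on chromosome 9, was the gene whose groups did not overlap over all its sites. Of its 65 sites, 61 were lower and 4 higher in subfertile cows, whose gene means were 30.8%, 55.6%, 46.4%, 59.0%, 41.4% and 17.3% in cows 1 to 6. Fertile cows 1 to 6 stood at 80.6%, 63.7%, 72.2%, 65.6%, 77.7% and 81.6%. The highest subfertile cow lay below the lowest fertile cow, and the means were 41.7 ± 15.7% in subfertile cows and 73.6 ± 7.69% in fertile cows. On the log2 scale the difference was −1.84 with a standard error of 0.48 and an adjusted p of 0.0627 by limma. By nearest gene, which keeps 1 of the 65 PTPRK sites, it was 2.12. Its sites, spread over 597 kb, did not move as a block. The mean absolute correlation between them within groups was 0.348, against a median of 0.561 over 1,828 genes with at least 10 complete sites. The median of the 14 such phosphatase genes was 0.457. A low value was not particular to PTPRK, with PTPRM at 0.368 and PTPRT at 0.374. The cows' order also changed along the gene. In the PTPRK run of 11 sites in intron 14 (66045568 to 66047637), subfertile cow 6 was listed at 0 and the other subfertile cows lay between 36.5% and 55.0%, whereas fertile cows lay between 44.9% and 91.7%. In the PTPRK run of 7 sites from 66252423 to 66254133, subfertile cows 1, 3 and 6 were listed at 0 and subfertile cow 4 stood at 84.8%, among fertile cows between 37.0% and 89.4%.

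PTPRT, on chromosome 13, had 73 sites with 40 higher and 33 lower, and the gene means lay close together at 43.5 ± 2.91% in subfertile cows and 41.1 ± 4.26% in fertile cows (limma adjusted p = 0.734). PTPRU had 6 sites, 5 of them lower, at 53.6 ± 13.5% in subfertile cows and 74.8 ± 9.83% in fertile cows (limma adjusted p = 0.0887). So 3 of the 4 MAM-domain genes had lower means in subfertile cows, and none of them passed the test.

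The third group of receptors has an extracellular part built of fibronectin repeats, and PTPRQ, known for its place in the hair bundles of the inner ear and for acting on phosphoinositides, showed the widest site differences of the family. It had 88 sites on chromosome 5, 26 higher and 62 lower in subfertile cows. The groups did not overlap at 7 of the 88, against 2.93% of all gene-feature sites, and some of the 7 lay close together in 1 run. The gene mean ran from 34.6% through a median of 40.5% to 45.7% in subfertile cows, and from 43.8% through 56.8% to 65.6% in fertile cows. The groups overlapped narrowly, at 40.5 ± 3.56% in subfertile cows and 55.8 ± 8.65% in fertile cows (limma adjusted p = 0.108). The PTPRQ log2 difference of −0.82 was −0.48 with runs averaged first and −0.32 over the 104 sites whose nearest gene is PTPRQ.

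Neighbouring PTPRQ sites ran in opposite directions. Of the PTPRQ sites 75 were genotype-like, and whether their levels follow the cows' DNA sequence was not tested. In intron 16 of 60, a run of 12 sites between 9997541 and 9999387 held 6 lower sites followed by 6 higher ones, and its mean, 49.2 ± 3.56% in subfertile cows and 43.9 ± 7.39% in fertile cows, hid both. At chr5:9998506 on the minus strand, subfertile cows read 23.1%, 0%, 0%, 0%, 0% and 0%, and fertile cows 42.9%, 90%, 84.6%, 47.6%, 50% and 50%. Only 641 bases further on, at chr5:9999147 on the plus strand, subfertile cows read 100%, 100%, 100%, 92.9%, 94.7% and 100%, and fertile cows 36.4%, 0%, 0%, 36.4%, 90.9% and 33.3%. The groups did not overlap at either of these PTPRQ sites, and the order was turned: the means were 3.85 ± 9.42% in subfertile cows and 60.8 ± 20.7% in fertile cows at the first, and 97.9 ± 3.26% and 32.8 ± 33.3% at the second. A run of 8 sites in intron 51, from 10188533 to 10189322, had 6 lower and 2 higher sites. In both runs every subfertile mean lay below 10% or above 80%, and the fertile means lay between 23.9% and 78.0%. At both named sites the adjusted p by limma over all sites was 0.0659.

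**Figure D4:**
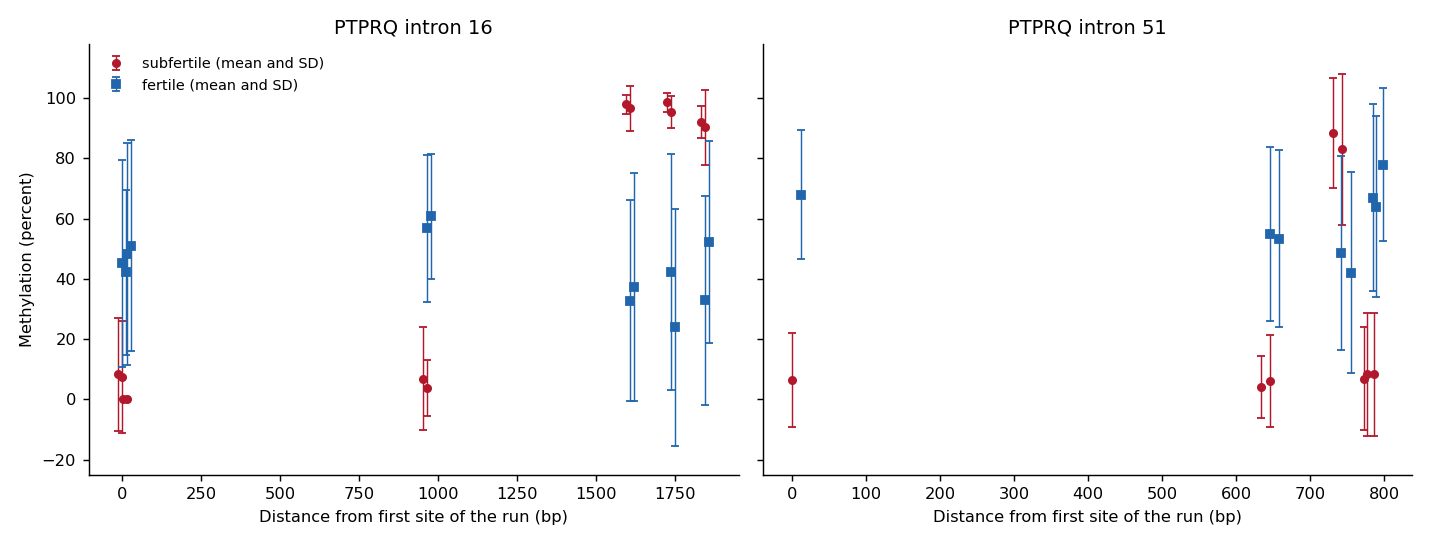
Methylation in percent (vertical axis) against the distance in bases from the first site of the run (horizontal axis) for the 12 PTPRQ sites of intron 16 and the 8 of intron 51. Red circles are means of subfertile cows and blue squares means of fertile cows, with the SD over the cows as bars, set slightly apart for sight. Subfertile means lie below 10% or above 80% and change sides within each run, with fertile means between them.

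PTPRJ encodes CD148, which acts on Src-family kinases of leukocytes and platelets. It had 64 sites on chromosome 15, 54 higher and 10 lower in subfertile cows, and 13 of its sites lay in an annotated promoter, more than in any other member. Over the gene, subfertile cows lay between 73.7% and 83.0% with a median of 82.2%, and fertile cows between 16.3% and 82.9% with a median of 70.2%. The groups overlapped, with fertile cow 1 at 16.3% and fertile cow 4 at 38.7% far under the rest. Of the PTPRJ sites 57 were genotype-like, and over the other 7 the difference turned, with 66.8 ± 10.96% in subfertile cows and 71.7 ± 7.15% in fertile cows. The log2 difference of 1.23 was 0.71 without fertile cow 1. PTPRB, the vascular endothelial phosphatase, singled out after its values were seen, had close means of 42.6 ± 7.97% in subfertile cows and 45.3 ± 2.37% in fertile cows, with 9 of its 17 sites higher and 8 lower. PTPRO, known from the podocyte of the kidney, had 5 of 6 sites lower, at 40.9 ± 18.4% in subfertile cows and 59.4 ± 18.9% in fertile cows. Its log2 difference of −1.07 was −0.32 over the 2 sites that were not genotype-like.

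The 2 receptors with a short extracellular part, PTPRE and PTPRA, are known to act on Src-family kinases. PTPRE had 23 of 24 sites higher in subfertile cows, the gene means being 85.0%, 84.7%, 87.5%, 49.4%, 89.0% and 83.4% in subfertile cows 1 to 6 and 4.35%, 42.3%, 40.5%, 48.7%, 84.8% and 38.9% in fertile cows 1 to 6. Subfertile cow 4 lay with the fertile cows, and fertile cow 5 with the subfertile ones. The means were 79.8 ± 15.0% in subfertile cows and 43.2 ± 25.7% in fertile cows, the log2 difference was 2.35 with a standard error of 0.79, and the adjusted p by limma was 0.0808. PTPRA had 1 site, at 77.8 ± 40.4% in subfertile cows and 53.8 ± 45.5% in fertile cows.

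The receptors with a carbonic anhydrase-like domain are PTPRG and PTPRZ1. PTPRZ1, which binds the growth factor pleiotrophin, had 11 of 12 sites lower in subfertile cows, with a low of 6.49%, a median of 14.5% and a high of 64.2% in subfertile cows and a low of 38.0%, a median of 48.2% and a high of 73.7% in fertile cows. The groups overlapped through subfertile cow 4 alone, and the adjusted p by limma was 0.0791. It was 0.0481 when that cow was left out, in a fit that passed 65 of 9,891 genes, against 12 with all cows. That cow was the 1 that made the groups overlap, so the lower value adds no support. PTPRG had 40 of 57 sites lower, at 56.4 ± 13.4% in subfertile cows and 68.0 ± 5.85% in fertile cows (limma adjusted p = 0.220).

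PTPRN2, a protein of secretory granules, had 85 sites, 51 higher and 34 lower, and means of 65.6 ± 2.16% in subfertile cows and 61.1 ± 10.1% in fertile cows that differed by less than the spread between fertile cows. PTPRR, which docks on mitogen-activated protein kinases, had 14 of 20 sites lower and means of 64.4 ± 19.0% in subfertile cows and 76.7 ± 6.21% in fertile cows. All 4 PTPRCAP sites were higher in subfertile cows. The PTPRCAP mean was 87.5%, 75.4%, 70.9%, 49.1%, 78.2% and 66.4% in subfertile cows 1 to 6 and 39.3%, 0%, 75.4%, 32.1%, 21.2% and 0% in fertile cows 1 to 6. One fertile cow lay within the range of the subfertile cows, and the adjusted p by limma was 0.0754.

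The annotation calls a site promoter when it lies within 3 kb of a transcript start, on either side, so it can lie inside or past a short gene. The DUSP1 site lay 2.56 kb downstream of the start, and the DUSP28 site 2.79 kb downstream, past the end of that gene. Promoter sites were present in 16 of the 37 genes, and PTPRJ and PTPRE had the 3 or more that the promoter fit asked for. Neither passed, while 15.9% of the 1,292 genes of that fit did; both had an unadjusted p below 0.05, as had 51.9% of those genes. The PTPRJ promoter mean was 92.7%, 89.8%, 96.8%, 92.4%, 95.8% and 96.1% in subfertile cows 1 to 6 and 5.36%, 82.0%, 87.5%, 47.9%, 89.8% and 62.6% in fertile cows 1 to 6. Subfertile cows were uniformly high, fertile cow 5 touched their lowest value, and fertile cow 1 was near 0. The PTPRJ means were 93.9 ± 2.73% in subfertile cows and 62.5 ± 32.4% in fertile cows, with a log2 difference of 2.49, a standard error of 0.87 and an adjusted p of 0.0564 by limma. The PTPRE promoter mean was 82.4 ± 18.8% in subfertile cows and 45.8 ± 28.6% in fertile cows over 3 sites, with an adjusted p of 0.0634 by limma. Both promoters are internal ones by the deposited annotation: the PTPRJ sites began 126 kb and the PTPRE sites 64.5 kb downstream of the first listed start of the gene. In the 9 PTPRJ sites from 77812700 to 77814609, the densest promoter run of the family, subfertile cows averaged 91.7 ± 3.82% and fertile cows 59.1 ± 31.8%.

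In the non-receptor class 0 of 104 sites had groups that did not overlap, where the share of all gene-feature sites is 2.93%. Its members with a FERM domain, which ties them to the cell cortex, held most of its sites. All 31 sites of PTPN21, which lay across introns 2 to 13 with 1 exonic and 1 promoter site on chromosome 10, were higher in subfertile cows. The PTPN21 gene mean was 93.6%, 91.6%, 0.728%, 48.4%, 92.7% and 47.2% in subfertile cows 1 to 6 and 92.2%, 40.5%, 5.98%, 0%, 0% and 0.202% in fertile cows 1 to 6. Cows of both groups stood below 6%, between 40.5% and 48.4% or between 91.6% and 93.6%, with 3 subfertile cows and 1 fertile cow at the high level and 1 subfertile cow and 4 fertile cows at the low one. The means were 62.4 ± 37.4% in subfertile cows and 23.2 ± 37.3% in fertile cows (limma adjusted p = 0.143). All 31 PTPN21 sites were genotype-like. The mean absolute correlation between them within groups was 0.915, above the 90th percentile of 0.818 over genes with at least 10 complete sites, whereas the median of the 14 such phosphatase genes was 0.457. Whether these levels follow the cows' DNA sequence was not tested either.

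**Figure D5:**
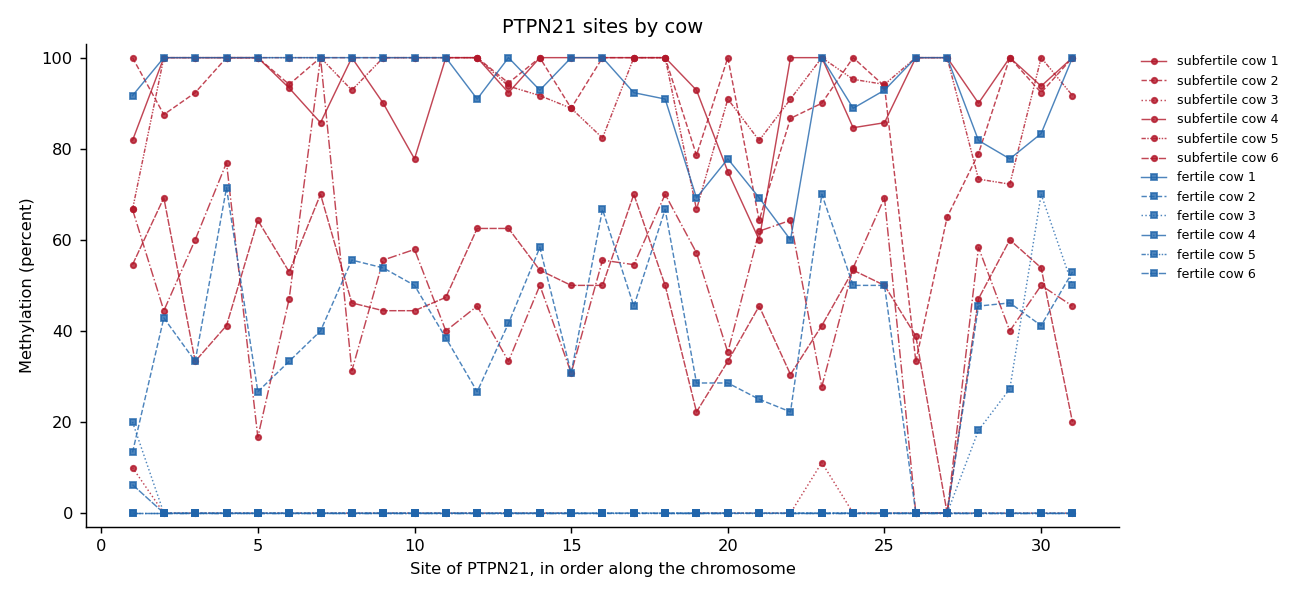
Methylation in percent (vertical axis) at each of the 31 PTPN21 sites in order along the chromosome (horizontal axis). Each line is 1 cow, subfertile in red with circles and fertile in blue with squares. Lines stay near 0, near the middle or near 100% across most of the gene, and both groups have cows at all 3 levels.

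PTPN13, a FERM and PDZ protein, had 22 of 23 sites lower in subfertile cows. Its gene mean was 43.7%, 38.1%, 94.7%, 56.6%, 43.5% and 11.3% in subfertile cows 1 to 6 and 88.0%, 88.4%, 88.5%, 89.7%, 52.2% and 58.0% in fertile cows 1 to 6. The groups overlapped, since subfertile cow 3 was the highest of the 12 (limma adjusted p = 0.132). PTPN4, which has the same domains, had all 9 sites lower, at 56.4 ± 33.1% in subfertile cows and 89.1 ± 10.5% in fertile cows (limma adjusted p = 0.101). PTPN3, its nearest relative, had 4 of 12 sites higher, at 56.3 ± 14.4% in subfertile cows and 66.2 ± 6.98% in fertile cows.

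PTPN2 removes phosphate from JAK kinases and STAT proteins in leukocytes. Its 4 intronic sites were all lower in subfertile cows, and its gene mean was 93.8%, 55.6%, 96.7%, 48.0%, 45.5% and 37.2% in subfertile cows 1 to 6, against a range of 93.8% to 98.3% in fertile cows. Subfertile cows 2, 4, 5 and 6 lay far under every fertile cow, whereas subfertile cow 1 lay just under the lowest fertile cow and subfertile cow 3 among them. The means were 62.8 ± 25.8% in subfertile cows and 96.0 ± 1.75% in fertile cows, with an adjusted p of 0.0716 by limma. PTPN23, which works in endosomal sorting, showed the same shape over 6 sites from 52268886 to 52269186 on chromosome 22, all lower: subfertile cows ran from 0 to 100% with a median of 73.3%, and fertile cows from 94.5% to 99.1%. PTPN12, which acts on focal adhesion proteins, had 1 site, at 75.8 ± 25.2% in subfertile cows and 41.9 ± 7.0% in fertile cows (limma adjusted p = 0.0809). PTPN9, a phosphatase of secretory vesicles, had 5 of 9 sites higher and means of 57.5 ± 4.13% in subfertile cows and 55.3 ± 4.74% in fertile cows, a difference within the spread of both.

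The dual-specificity class was sparse, with 1 to 3 sites per gene, so each gene mean rests on very few cytosines. DUSP8, which acts on the kinases JNK and p38, had 2 promoter sites on chromosome 29 that ran opposite ways. At chr29:49972535 on the minus strand, subfertile cows 1, 3, 4, 5 and 6 read 100%, 90.9%, 92.9%, 100% and 100%, with cow 2 missing, and fertile cows 1 to 6 read 41.7%, 83.3%, 25%, 85.7%, 0% and 0%. Every measured subfertile cow lay above every fertile cow, with means of 96.8 ± 4.50% (n = 5) and 39.3 ± 38.5% (n = 6). At chr29:49971197, also on the minus strand, subfertile cows read 28.6%, 0%, 83.3%, 100%, 45.5% and 80%, and fertile cows lay between 66.7% and 92.3%. There the means were 56.2 ± 38.1% in subfertile cows and 83.3 ± 9.24% in fertile cows, and the groups overlapped. Averaged over both sites, DUSP8 stood at 68.4 ± 35.5% in subfertile cows and 61.3 ± 20.1% in fertile cows (limma adjusted p = 0.829). Subfertile cow 2 entered that DUSP8 mean with the second site alone.

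DUSP12, a zinc-binding member, had the smallest adjusted p of the family, 0.0614 by limma. Its 2 sites are both strands of 1 CpG in intron 5, and subfertile cows 1 to 6 stood at 0%, 50.6%, 100%, 34.3%, 42.1% and 53.5%, whereas every fertile cow was listed at 0. Without subfertile cow 1, the 1 subfertile cow at 0, the adjusted p by limma was 0.0356, in a fit that 19 of 9,891 genes passed. That cow was the 1 that matched the fertile cows, so the lower value adds no support. DUSP1, the inducible nuclear phosphatase of mitogen-activated protein kinases, had 1 site, annotated as promoter although it lay 2.56 kb downstream of the start. This site averaged 48.0 ± 43.1% in subfertile cows and 81.3 ± 20.9% in fertile cows. DUSP14, a negative regulator of T-cell receptor signalling, had 2 sites at adjacent bases, 13797238 and 13797239, both lower. It averaged 45.5 ± 33.1% in subfertile cows and 73.8 ± 28.8% in fertile cows. DUSP22, which acts on the T-cell kinase LCK, had 3 sites, all higher, at 96.9 ± 3.90% in subfertile cows and 74.0 ± 34.4% in fertile cows. DUSP3, DUSP28 and DUSP29 had 1 site each. DUSP3 averaged 53.5 ± 31.0% in subfertile cows and 79.0 ± 39.0% in fertile cows, and DUSP29 92.2 ± 6.17% in subfertile cows and 66.0 ± 36.4% in fertile cows. The groups overlapped in all 8 dual-specificity genes.

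Of 64 phosphatase symbols of these 3 classes in the RefSeq gene table, 27 had no deposited site in a gene feature. They included PTPRC, which encodes the leukocyte receptor CD45, the leukocyte phosphatases PTPN6, PTPN22 and PTPN7, PTPN11 and PTPN1, and the inducible MAP kinase phosphatases DUSP2, DUSP4, DUSP5, DUSP6 and DUSP10. The table lists selected sites alone, so the methylation level of those genes is not analysed here. Symbols were matched by name, and 2,204 of the 10,773 genes with a site in a gene feature had no symbol. A phosphatase gene among those would have been counted as without a site.

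Lists of other genes of the pathway were read from the same gene fit, and none of their genes passed the test. Of other tyrosine and dual-specificity phosphatases, 18 of 33 listed genes were tested, 7 higher and 11 lower in subfertile cows, with a median difference of −5.11 percentage points. Of mitogen-activated protein kinases and their activators, 13 of 31 were tested, 8 higher and 5 lower, with a median of 6.09 points. Of leukocyte tyrosine kinases and adaptors, 20 of 38 were tested, 15 higher and 5 lower, with a median of 14.1 points. Over all genes 51.8% were higher, with a median of 1.78 points. At an unadjusted p below 0.05 there were 5 of the 18 other phosphatases, 4 of the 13 kinases of the mitogen-activated pathway and 9 of the 20 leukocyte genes, where 40.6% of all genes were.

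Whole blood holds several cell types, and their shares were not measured. Marker genes of those types had selected sites as well, with none past the test: the 9 tested T-cell genes averaged 60.3% to 73.5% over subfertile cows and 57.6% to 74.7% over fertile cows, and the 6 tested B-cell genes 57.7% to 76.4% over subfertile cows and 36.6% to 83.7% over fertile cows. The 8 tested natural killer cell genes averaged 53.8% to 65.1% over subfertile cows and 60.2% to 73.3% over fertile cows. Monocyte, neutrophil, eosinophil and basophil, platelet and erythroid lists had 2 tested genes each. The list averages of the groups overlapped in each of these 8 lists, but genes of opposite direction cancel in such an average. Taken singly, 1 of 9 T-cell, 1 of 8 natural killer cell and 1 of 2 neutrophil genes had groups that did not overlap. Over all genes the share was 3.38%. In subfertile and fertile cows THEMIS averaged 63.3% and 93.4%, NKG7 78.0% and 38.6%, and MPO 51.7% and 87.3%. In the other tested marker genes the groups overlapped. The part of cell composition in the phosphatase differences was not tested.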

How the data were processed

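Whole-blood DNA of 12 cows, 6 subfertile and 6 fertile, was extracted from 1 mL of blood each and converted enzymatically, per the labels' protocols. Per the submitters' processing notes the build was ARS-UCD1.2, and the tools included ChIPseeker 1.32.1, fastp 0.23.1, DRAGEN and Bismark. Neither the read minimum nor the statistical tool is given in the sources used here. For every cytosine the deposited file holds a percent of methylation for each cow and a mean percent for each group, per the file headers. The authors' p-value and q-value, per the file headers, and the authors' deposited difference, a signed score in percentage points whose weighting is not stated, had already been used to select the sites, since every site passed the limits in the report. Columns with the prefix F belong to cows labelled subfertile and those with R to cows labelled fertile. Groups were taken from the labels, and a reversed meaning of the letters would turn every direction.

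From these values means per gene and cow were calculated over the sites of the host gene named in the annotation text, which for 329 phosphatase sites was not the nearest gene. After adding 5 points to the methylated and the unmethylated percent, their log2 ratio was fitted with limma 3.58.1 (R 4.3.3) on group alone, over the whole table, and the fit was tested on simulated shifts. Replicate numbers follow the order of deposit and pair no cows, and p-values measure the spread between these cows. The alternatives were 1 added point, plain percent, each cow left out, genotype-like sites left out, nearest genes, averaged runs and other site minimums. The genes described were DUSP8, the members of each class with most sites or the largest differences, those with at least 3 promoter sites, the single sites with the largest gaps and the 6 longest runs; PTPRF, PTPRB, PTPRO, PTPRA, PTPRG, PTPRR and PTPRU were added after their values were seen, and no single site of the non-receptor class met the rule. Members, lists and tests were chosen with earlier results of these data known. Gene symbols came from the deposited table and RefSeq names from the ARS-UCD2.0 table, whose coordinates were not used.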

Additional observations from a re-analysis of the deposited data

Results flagged for a closer look

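Of 74 gene means by group, 9 had 1 cow whose distance to its nearest neighbour took up more than 0.625 of the group's range. That is Dixon's 95% limit for 6 values, which marks about 1 group in 20 by chance where values are normally distributed. These percents are bounded, so that rate need not hold here, and the count of 9 was not tested against it. Subfertile cow 4 was that cow at 3 genes. It stood at 49.4% in PTPRE, where the other subfertile cows lay between 83.4% and 89.0%, at 64.2% in PTPRZ1, where they lay between 6.49% and 22.5%, and at 86.6% in PTPN5, a phosphatase of striatal neurons, where they lay between 40.7% and 57.5%. Subfertile cow 2 stood at 0.0% in PTPRA and at 0.0% in DUSP8, where it had 1 of the 2 sites. Subfertile cow 3 stood at 50% in DUSP28, under the other subfertile cows at 85.7% and above.

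Fertile cow 1 stood at 83.5% in PTPRF, where the other fertile cows lay between 42.3% and 46.4%, and at 68.1% in PTPN4, where they lay between 91.5% and 96.7%. Fertile cow 2 stood at 0.0% in DUSP3, where the others lay at 87.5% and above. PTPRA, DUSP28 and DUSP3 rest on 1 site each.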

How the results depend on the processing

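No paired analysis was possible because replicate numbers follow the order of deposit and the cows carry no pairing. In the gene fit the count of phosphatase genes past limma was 0 on plain percent, with 1 added point, by nearest gene, with runs averaged and with at least 3 sites a gene, but 9 of 24 without genotype-like sites, and between 0 and 1 when each cow was left out (DUSP12 without subfertile cow 1, PTPRZ1 without subfertile cow 4). With a cow left out, between 5 and 65 of all 9,891 genes passed. The promoter count was between 0 and 1 (PTPRE without fertile cow 5, where 129 of 1,292 genes passed). Between 4 and 182 of those 1,292 genes passed with a cow left out. Without genotype-like sites no phosphatase promoter could be tested. The site count was 5 on plain percent and 190 of 277 without genotype-like sites. That filter takes out the sites with the widest spread between cows, and the share of all genes and sites that pass moves with it. Sites with groups that did not overlap numbered 13 of 277 without genotype-like sites (5.23% of all such sites) and 15 of 486 with runs averaged (2.97% of all runs). The share of higher sites was 46.5% of 652 sites by nearest gene, and 41.2% with any 1 cow left out, which says little about stability because a selected difference of this size can hardly turn when 1 of 6 cows goes.

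Log2 differences changed sign without genotype-like sites in PTPRB (1.85) and PTPRJ (−0.28), by nearest gene in DUSP29 (−0.030), PTPN3 (2.17), PTPN9 (−0.092), PTPRK (2.12) and PTPRT (−0.17), and with runs averaged in PTPN9 (−0.091) and PTPRB (0.13). DUSP8 ran from −0.18 without subfertile cow 4 to 1.41 without subfertile cow 2 when each cow was left out. Nearest-gene assignment uses other sites by construction; the cause of the other changes was not tested. Among the other single-gene values, 650 kept sign and side of the threshold and 12 came to pass it. Of the 611 of these on the log2 scale, 50 in 25 genes still moved by over 1.5 times, 32 of them with a cow left out. Without genotype-like sites PTPRM came to −0.0061 and PTPRO to −0.32, and with runs averaged PTPRD came to −0.44, PTPRF to 0.47 and PTPRQ to −0.48. Depth is unknown, and with 6 cows a group, a single cow at 0% or 100% moves a gene mean strongly.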

Other observations

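Sites that the deposited annotation calls distal intergenic were not counted for any gene above, and 254 of them had a phosphatase gene as their nearest gene, over 31 genes. Of these, 45.7% were higher in subfertile cows, against 53.2% of all 124,455 intergenic sites, and 4 (1.57%) had groups that did not overlap, against 3.23%. Next to PTPRK, from 4.87 kb off its start, 25 sites averaged 34.2 ± 11.3% in subfertile cows and 62.1 ± 11.8% in fertile cows, with 21 of the 25 lower, the same side as within the gene. Next to PTPRG, 21 sites averaged 57.0 ± 7.51% in subfertile cows and 77.3 ± 3.25% in fertile cows, and the groups did not overlap, whereas they did within the gene.

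Before the start of PTPRQ, 10 sites were all higher, at 91.2 ± 3.28% in subfertile cows and 42.6 ± 39.5% in fertile cows, the opposite side from the PTPRQ gene mean but the same side as the last sites of the intron 16 run. Next to PTPN3, 31 sites were all higher, at 43.6 ± 31.9% in subfertile cows and 13.3 ± 7.17% in fertile cows. DUSP4, an inducible phosphatase of mitogen-activated protein kinases with no site in a gene feature, was the nearest gene of 32 sites, 24 of them lower, at 31.1 ± 7.71% in subfertile cows and 47.8 ± 10.2% in fertile cows. DUSP10, which acts on JNK and p38, was the nearest gene of 25 sites, 13 higher and 12 lower, at 66.2 ± 9.16% in subfertile cows and 65.8 ± 13.8% in fertile cows. These means were not tested.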
